A study of Homo sapiens with 8 samples.

Results

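Genes that mark the osteoblast, the bone-forming cell, were followed in H3K4me3 peak lists from an osteosarcoma line. They were RUNX2, SP7, TWIST1 and MSX2 among transcription factors, COL1A1, COL1A2, SPP1, BGLAP and IBSP among matrix proteins, and the enzyme ALPL. These 10 genes were chosen by name out of 20033 protein-coding genes. A gene was called when a broad peak lay within 3 kb on either side of the 5′ end of its MANE Select transcript, the reference transcript that GENCODE release 44 gives for each gene. The bp of that window that lay under peaks are called its covered length.

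H3K4me3 ChIP-seq had been done on U2OS, a human osteosarcoma line, in clones that were wild type (WT) or knocked out (KO) for ZBTB48, a zinc finger factor found at telomeres and at some promoters. By the sample records every clone, WT and KO alike, had been treated for 24 h with interferon gamma (IFNγ) at 250 U/ml. No untreated library was among the samples. A figure legend of the study gives a longer treatment for tracks that include H3K4me3 ChIP-seq. Each genotype had 3 libraries, each from 1 clone, and 2 WT inputs were not used here. H3K4me3 is the trimethylation of lysine 4 of histone H3, which sits at the 5′ ends of active and poised genes. It is a mark on chromatin and gives no RNA or protein level.

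RUNX2 is the transcription factor that commits a mesenchymal precursor to the bone lineage, and SP7 acts after it in the precursors it has committed. MSX2 and TWIST1 are factors of the skull and limb mesenchyme, and TWIST1 restrains RUNX2. The matrix of bone is mostly type I collagen, made from the products of COL1A1 and COL1A2. ALPL frees phosphate for mineral, while IBSP, SPP1 and BGLAP (bone sialoprotein, osteopontin and osteocalcin) bind mineral and appear as the osteoblast matures.

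The 6 lists held 21712 to 26370 peaks. WT replicates 1 and 2 had a median fold enrichment of 13.4 and 14 and median peak widths of 2297 and 2353 bp. The other 4 lists, WT replicate 3 and the 3 KO libraries, had median fold enrichments of 4.19 to 4.65 and widths of 1275 to 1487 bp. The kind of list and the genotype were thus partly confounded, and each difference between genotypes is given with WT replicate 3 set against the KO libraries, a comparison chosen after the values were seen. The lists carry no read counts, so a gene without a peak is a gene not called at an unknown depth.

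Of the 10 genes, 4 (RUNX2, MSX2, COL1A1 and SPP1) had a peak within 3 kb in all 6 libraries. The other 6, SP7, TWIST1, COL1A2, BGLAP, IBSP and ALPL, had none in any library. No member was called in some libraries and missed in others, so the count was 4 in each of the 3 WT and 3 KO lists. Over all protein-coding genes, 66.9% had a peak within 3 kb in all 6 libraries and 28% had one in none. Only RUNX2 and MSX2 had the 5′ end itself under a peak in all 6 libraries, as 61.3% of protein-coding genes did. The maps of peaks around the 5′ ends show these patterns.

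**Figure D1:**
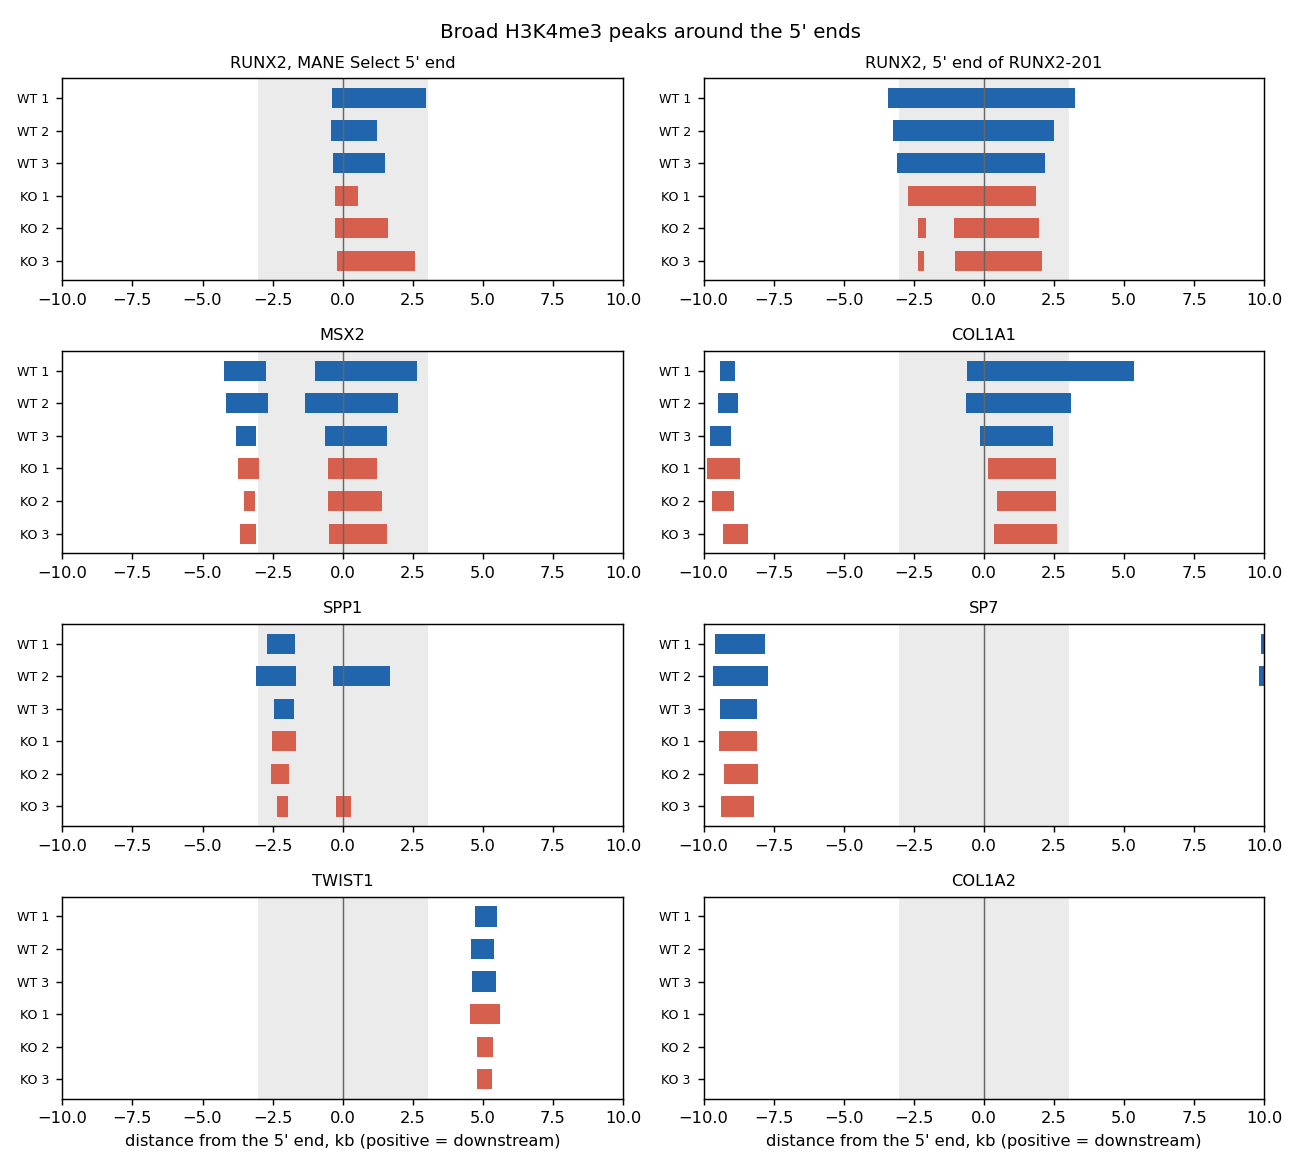
Broad H3K4me3 peaks (bars) in each of the 6 libraries (rows, WT in blue and KO in red) within 10 kb of the 5′ end of 7 members, with distance in kb along the gene's own direction and the window of 3 kb on either side in grey. RUNX2 is drawn at 2 of its 5′ ends. SP7 and TWIST1 have peaks only outside the window, COL1A2 has none, and at COL1A1 the KO peaks start downstream of the 5′ end.

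The sequence in front of the 5′ end was described for the 6 members in the RefSeq promoter table (GRCh38.p14). RUNX2, MSX2, ALPL, SPP1, BGLAP and IBSP had an entry, and SP7, TWIST1, COL1A1 and COL1A2 did not. The stretches printed here are those of 2 marked and 2 unmarked genes, and they show how far CpG content and the mark part company at RUNX2 and ALPL. Each is on the forward strand of GRCh38.p14, from 250 bases before the 5′ end up to the nearest annotated exon, and capitals mark each CG dinucleotide.

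RUNX2, chr6:45328080-45328156: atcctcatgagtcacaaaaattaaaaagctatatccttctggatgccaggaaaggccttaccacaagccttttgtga
MSX2, chr5:174724332-174724581: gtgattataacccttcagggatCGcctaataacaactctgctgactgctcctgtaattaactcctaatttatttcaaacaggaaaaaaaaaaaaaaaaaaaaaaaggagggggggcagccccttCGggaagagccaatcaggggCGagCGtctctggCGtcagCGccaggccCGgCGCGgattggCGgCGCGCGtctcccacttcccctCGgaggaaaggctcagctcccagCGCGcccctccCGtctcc
ALPL, chr1:21509173-21509396: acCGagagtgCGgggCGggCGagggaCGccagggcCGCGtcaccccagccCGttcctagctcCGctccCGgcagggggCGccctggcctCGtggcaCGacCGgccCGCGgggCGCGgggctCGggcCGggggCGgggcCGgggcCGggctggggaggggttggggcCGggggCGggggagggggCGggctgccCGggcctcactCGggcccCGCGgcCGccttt
BGLAP, chr1:156241934-156242183: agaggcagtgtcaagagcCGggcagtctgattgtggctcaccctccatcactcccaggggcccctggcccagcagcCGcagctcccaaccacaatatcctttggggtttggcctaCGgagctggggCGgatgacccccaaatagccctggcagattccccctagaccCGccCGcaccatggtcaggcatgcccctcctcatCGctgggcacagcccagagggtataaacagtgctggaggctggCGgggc

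Of 14586 protein-coding promoters with an entry, 9482 were CpG-rich in the 250 bases before the 5′ end (GC of at least 50% and an observed over expected CpG ratio of at least 0.6). Of these, 89.9% had a peak within 3 kb in all 6 libraries and 7.73% had none in any. Among the 5104 that were not CpG-rich the shares were 30.6% and 60.5%. MSX2, with 17 CpG and a ratio of 0.885, was CpG-rich and marked. ALPL, with a GC content of 83.6%, 34 CpG and a ratio of 0.813, was CpG-rich and unmarked in every list.

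At RUNX2 the opposite held. Its 5′-most promoter, known as P1, had no CpG at all in its 250 bases and a GC content of 41.6%, yet it was marked in all 6 libraries. Of 415 promoters without a CpG, 33 (7.95%) were marked in all 6 and 87.0% in none. SPP1, BGLAP and IBSP held 3, 8 and 4 CpG and were not CpG-rich, and of these SPP1 alone was called. The TATA box letters TATAAA, searched on the gene's strand, were in 6.82% of promoters and, among the members, only in BGLAP, 28 bases before its 5′ end. The letters TGTGGT, the core of the site that RUNX proteins bind, were searched on both strands and stood in 8.60% of promoters. They were found in RUNX2 itself, 191 and 87 bases before its 5′ end, in SPP1 at 142 bases and in BGLAP at 163 bases, and a match is a description of the letters only.

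**Figure D2:**
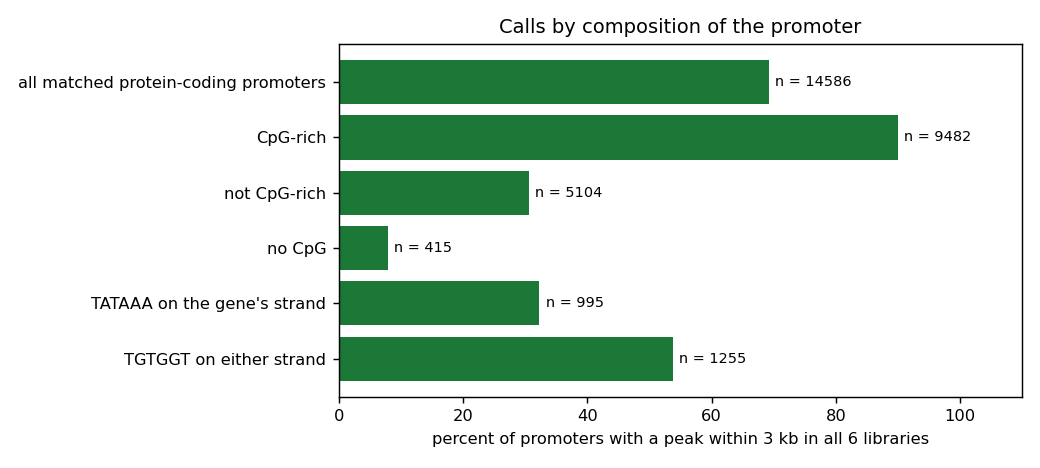
Share of protein-coding promoters (x axis, percent) with an H3K4me3 peak within 3 kb in all 6 libraries, by composition of the 250 bases before the 5′ end, with the number of promoters beside each bar. RUNX2 belongs to the class without CpG, of which 7.95% were marked, and ALPL to the CpG-rich class, of which 89.9% were marked.

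RUNX2 (ENSG00000124813, chromosome 6, plus strand, 5′ end at 45328330) was covered for 3321, 1652 and 1867 bp in WT replicates 1, 2 and 3. In KO replicates 1, 2 and 3 it was covered for 843, 1893 and 2806 bp. The genotypes overlapped fully, with the shortest and the second longest value both in KO. The means were 2280 ± 908 bp in WT and 1847 ± 982 bp in KO (SD, n = 3 each), a difference of 433 bp (two-sided exact permutation p = 0.7, adjusted p = 0.737 by Benjamini-Hochberg over 14422 promoters with coverage). WT replicate 3 exceeded the KO mean by 19.7 bp and lay within the KO range. The upstream edge of the RUNX2 peak lay 366, 421 and 358 bp before the 5′ end in WT and 286, 290 and 219 bp in KO, without overlap. Most of the spread came from the downstream edge, 556 to 2954 bp into the gene over exons 1 and 2. Within 1 kb of the 5′ end, 1367, 1422 and 1359 bp were covered in WT and 843, 1291 and 1220 bp in KO. There each WT library was above each KO library (difference 265 bp, exact permutation p = 0.1, unadjusted). The share of promoters with this order within 1 kb was not computed.

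RUNX2 has another promoter 94155 bp downstream, in the intron before exon 3, where the transcript RUNX2-201 begins at 45422485. Here the widest peak of each library was wider than its peak at the first promoter, though in KO replicate 3 by little, 3087 against 2806 bp. In WT they were 6698, 5768 and 5278 bp and in KO replicate 1 it was 4577 bp. In KO replicates 2 and 3 the region was split into peaks of 291 and 3030 bp and of 230 and 3087 bp. The widest peak of each library stood at the 97.3, 96.4 and 99.7th percentile of widths of its list in WT and at the 99.3, 97.0 and 97.9th in KO. They were wide but, in the 4 lists of lower enrichment, shallow, at the 1.03rd percentile of fold enrichment in WT replicate 3 and the 2.28, 1.68 and 2.20th in KO, against the 45.1 and 44.2th in WT replicates 1 and 2. In those 4 lists MSX2 also ranked lower (14.2 to 33.9 against 71.5 and 80.5), as did COL1A1 (24.7 to 35.3 against 67.1 and 57.7). The peak upstream of SPP1 ranked higher there (48.9 to 91.1 against 28.6 and 36.6). The first RUNX2 promoter was mixed (20.5 to 48.3 against 28.8 and 27.7). A long noncoding RNA, ENSG00000271857, is annotated at the same place, and the mark cannot be assigned to either transcript. Within 3 kb of this 5′ end, 6001, 5515 and 5176 bp were covered in WT and 4577, 3321 and 3317 bp in KO, with no overlap between genotypes, the order of libraries that 50.8% of covered promoters showed. The means were 5564 ± 415 and 3738 ± 726 bp (SD, n = 3 each; exact permutation p = 0.1, the smallest that 3 against 3 allows, unadjusted). WT replicate 3 exceeded the highest KO library by 599 bp. This 5′ end was examined after its peaks were seen.

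MSX2 (ENSG00000120149, chromosome 5, plus strand, 5′ end at 174724582) was covered for 3916, 3667 and 2193 bp in WT and for 1753, 1921 and 2057 bp in KO. Every WT value was above every KO value, with WT replicate 3 only 136 bp above the highest KO. The means were 3259 ± 931 and 1910 ± 152 bp (SD, n = 3 each), a difference of 1348 bp (exact permutation p = 0.1, adjusted p = 0.196). Over all promoters with coverage, each WT library was above each KO library at 50.8%, and each KO above each WT at 0.111%, so this order of the libraries was the common one. The peak lay over exon 1 in all 6 libraries, and the second peak, about 3 to 4 kb upstream, was also in all 6.

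SP7 (ENSG00000170374, chromosome 12, minus strand, 5′ end at 53336354) had no peak within 3 kb. The nearest lay 7825, 7698 and 8091 bp away in WT and 8089, 8074 and 8199 bp away in KO, upstream of the MANE Select 5′ end. This peak covered the 5′ end of SP7-204, another protein-coding transcript of SP7 that begins 8961 bp upstream at 53345315. Widths there were 1756, 1977 and 1307 bp in WT and 1362, 1193 and 1172 bp in KO, and WT replicate 3 fell within the KO range. In fold enrichment this peak ranked at the 48.6, 62.0 and 92.0th percentile of its list in WT and at the 90.2, 91.7 and 89.9th in KO. The mean difference was 438 bp (exact permutation p = 0.2, unadjusted). SP7 was thus marked in all 6 libraries at an alternative 5′ end, examined after its values were seen, and at its MANE Select 5′ end in none.

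TWIST1 (ENSG00000122691, chromosome 7, minus strand, 5′ end at 19117636) had its nearest peak 4719, 4587 and 4625 bp downstream in WT and 4529, 4785 and 4777 bp downstream in KO. Widths were 772, 820 and 847 bp in WT and 1078, 571 and 566 bp in KO. The peak sat at the 5′ end of the long noncoding RNA ENSG00000232821, so it need not belong to TWIST1. A further noncoding gene, ENSG00000236536, starts 137 bp from the 5′ end of TWIST1 and was as unmarked as its neighbour.

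COL1A1 (ENSG00000108821, chromosome 17, minus strand, 5′ end at 50201631) was covered for 3589, 3641 and 2596 bp in WT and for 2425, 2119 and 2278 bp in KO. All WT values were above all KO values, and WT replicate 3 exceeded the highest KO by 171 bp. The means were 3275 ± 589 and 2274 ± 153 bp (SD, n = 3 each), a difference of 1001 bp (exact permutation p = 0.1, adjusted p = 0.196). The median difference over promoters with coverage was 965 bp, close to that of COL1A1. As a rank within its own library, its covered length stood at the 59.9, 64.8 and 81.7th percentile in WT and at the 78.1, 72.2 and 83.7th in KO, ranges that overlap.

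The position of the COL1A1 peak differed as well. In WT it began 588, 640 and 130 bp before the 5′ end and covered it. In KO it began 131, 463 and 344 bp after the 5′ end and left it bare. Of the 12748 protein-coding 5′ ends under a peak in all 3 WT libraries, 0.486% (62) were under none in the 3 KO libraries, and COL1A1 was among them. WT replicate 3, of the same kind of list as the KO libraries, passed the 5′ end by only 130 bp. The body of the peak lay over exons 2 to 5 in every library, and the 5′ end of a shorter transcript, COL1A1-211, 1440 bp downstream, was under it in all 6. A long noncoding RNA, ENSG00000249406, starts 1755 bp downstream and shares the peak.

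COL1A2 (ENSG00000164692, chromosome 7, plus strand, 5′ end at 94394895), whose product joins that of COL1A1 in the same collagen fibre, was at the other extreme. No peak lay in the gene or within 10 kb of it in any library, and the nearest was 113.8 to 114.4 kb away, toward the gene CASD1, which was named after the peaks were seen. The nearest annotated neighbour of its 5′ end is the noncoding gene ENSG00000285090, 2699 bp upstream, also without a peak.

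SPP1 (ENSG00000118785, chromosome 4, plus strand, 5′ end at 87975714) was called in all 6 libraries, yet mostly by a peak away from its 5′ end. Covered lengths were 995, 3356 and 699 bp in WT and 861, 665 and 923 bp in KO. WT replicate 2 stood far above the others, and the remaining libraries overlapped between genotypes. The means were 1683 ± 1456 and 816 ± 135 bp (SD, n = 3 each; exact permutation p = 0.4, adjusted p = 0.431). Without WT replicate 2 the difference was 30.7 bp. The peak found in every library lay about 1.7 to 3 kb upstream, where no 5′ end is annotated. A peak over the SPP1 5′ end was called only in WT replicate 2, with a −log10 q of 6.54, and in KO replicate 3, with 1.36, while the lowest −log10 q of any peak in the 6 lists was 1.01 to 1.09.

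SPP1 and IBSP lie in the same cluster of mineral-binding protein genes on chromosome 4, with DMP1 and MEPE, over 333.253 kb from DMP1 to the end of SPP1. DMP1, MEPE and IBSP (ENSG00000029559, 5′ end at 87799554) had no peak within 3 kb in any library. The nearest peak to the IBSP 5′ end was 48.9 to 49.2 kb downstream. It stood between genes, and apart from the peak upstream of SPP1 it was the only region of the cluster marked in all 6 libraries.

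BGLAP (ENSG00000242252, chromosome 1, plus strand, 5′ end at 156242184) had its nearest peak 27.4 to 28.1 kb upstream in all libraries. ALPL (ENSG00000162551, chromosome 1, plus strand, 5′ end at 21509423) had none at its 5′ end but did have peaks inside the gene, around exons 7 and 8, in the 3 WT libraries. Within 3 kb of the 5′ end of the transcript ALPL-202, at 21570303, 1547, 569 and 1815 bp were covered in WT and 0 bp in each KO library. The −log10 q of these WT peaks was 1.31, 2.18 and 8.01, and the first lay near the lowest of its list. The genotypes did not overlap here (exact permutation p = 0.1, unadjusted), and the place was chosen after its values were seen. Each WT library was above each KO library at 50.8% of covered promoters. That share also counts promoters with peaks in KO, and the share with 0 bp in each KO library was not computed. Peaks inside ALPL were not limited to WT. Near the transcript ALPL-201, 65055 bp downstream of the MANE Select 5′ end, 682 bp were covered in WT replicate 3 and 680 bp in KO replicate 1, and 0 bp in the other 4 libraries.

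**Figure D3:**
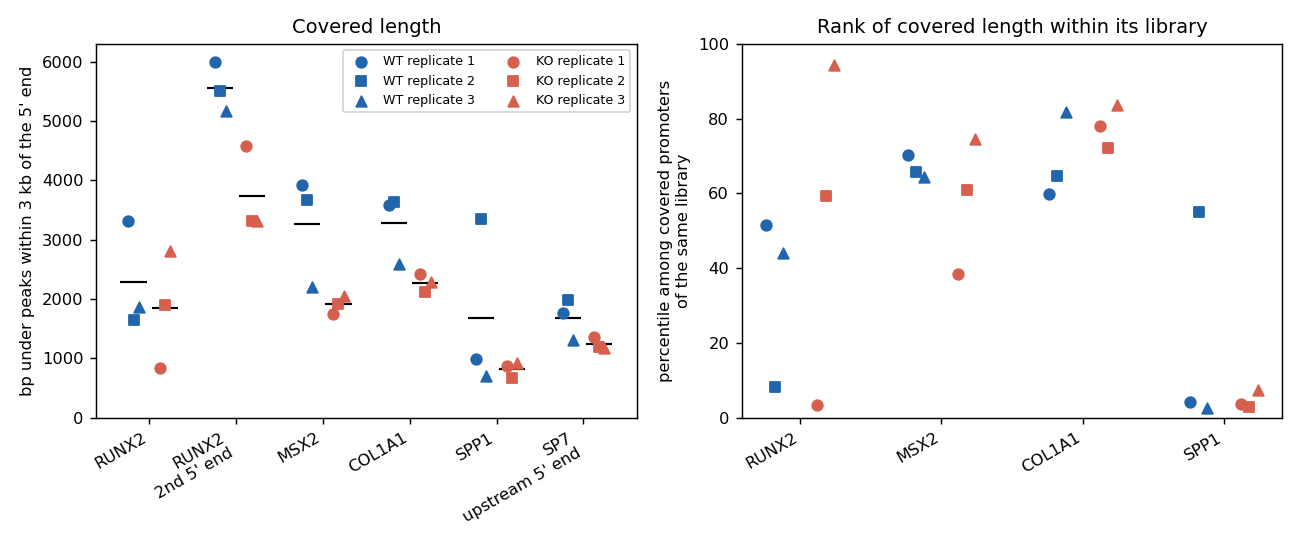
Left, bp under H3K4me3 peaks within 3 kb of the 5′ end for the 4 called members and for the other 5′ ends of RUNX2 and SP7, each point 1 library (WT blue, KO red, symbol by replicate) and each line the mean of 3. Right, the percentile of that length among covered promoters of the same library. WT replicate 3 lies nearer to the KO libraries than WT replicates 1 and 2 do at MSX2, COL1A1 and SP7, and the percentiles do not separate the genotypes.

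Covered length was longer in each WT than in each KO library at 2 of the 10 members, MSX2 and COL1A1, that is 2 of the 4 with coverage, against 50.8% of covered promoters. No member was longer in each KO library. For all covered promoters the median of the library values was 3222.5, 3165 and 1931 bp in WT and 1889, 1719 and 1621 bp in KO, which is the same step between kinds of list. The smallest adjusted p of any promoter was 0.196. ZBTB48 itself was covered for 3161, 3330 and 1821 bp in WT and for 1855, 1555 and 1241 bp in KO, a promoter mark that does not check the knockout.

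Other genes of the bone programme were taken from lists of 44 genes that hold none of the members. Of these, 31 had a peak within 3 kb in all 6 libraries, 11 in none and 2 in some, shares near the 66.9% in all 6 and 28% in none of all protein-coding genes. Each WT library was above each KO library at 16, about as often among the covered genes as at covered promoters in general (50.8%), and the reverse was seen at none (0.111% of covered promoters).

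Among 10 regulators that work beside RUNX2 and MSX2, 8 were called in all 6 libraries. They included CBFB, the partner of RUNX proteins (covered for 4374, 4065 and 2404 bp in WT and 2420, 2169 and 2037 bp in KO). RUNX3 and DLX6 were called in none. DLX5 was covered for only 373 to 655 bp, with its 5′ end under a peak in no library. The 5′ end itself was under a peak in all 6 libraries at 6 of the 10. Of 15 signalling genes, 14 were called in all 6 (against 66.9% of protein-coding genes, untested as for every list here), among them the BMP ligands BMP2, BMP4 and BMP7, the WNT receptors LRP5 and LRP6 and the vitamin D receptor VDR. PTH1R, the parathyroid hormone receptor, was reached in WT replicate 2 alone, over 63 bp.

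Of 11 genes of matrix and mineral, 6 were called in all 6 libraries, among them SPARC, the collagen crosslinking enzyme LOX, the collagen chaperone SERPINH1 and ANKH, which exports pyrophosphate. ANKH was covered for 4031, 3873 and 3758 bp in WT and 2478, 2512 and 2499 bp in KO, with WT replicate 3 above the highest KO by 1246 bp. It is given for this gap, which was −175 to 76 bp at the other genes of this list called in all 6. Each WT library was above each KO library at 50.8% of covered promoters, and the share with such a gap was not computed. POSTN, OMD, DCN and PHEX were called in none and BGN in WT replicate 3 alone. Of 5 osteocyte genes only PDPN was called, and DMP1, MEPE, SOST and FGF23 were not. Of 3 genes that control osteoclasts, TNFRSF11B, the decoy receptor for RANKL, and CSF1 were called in all 6, and TNFSF11, which encodes RANKL, in none.

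**Figure D4:**
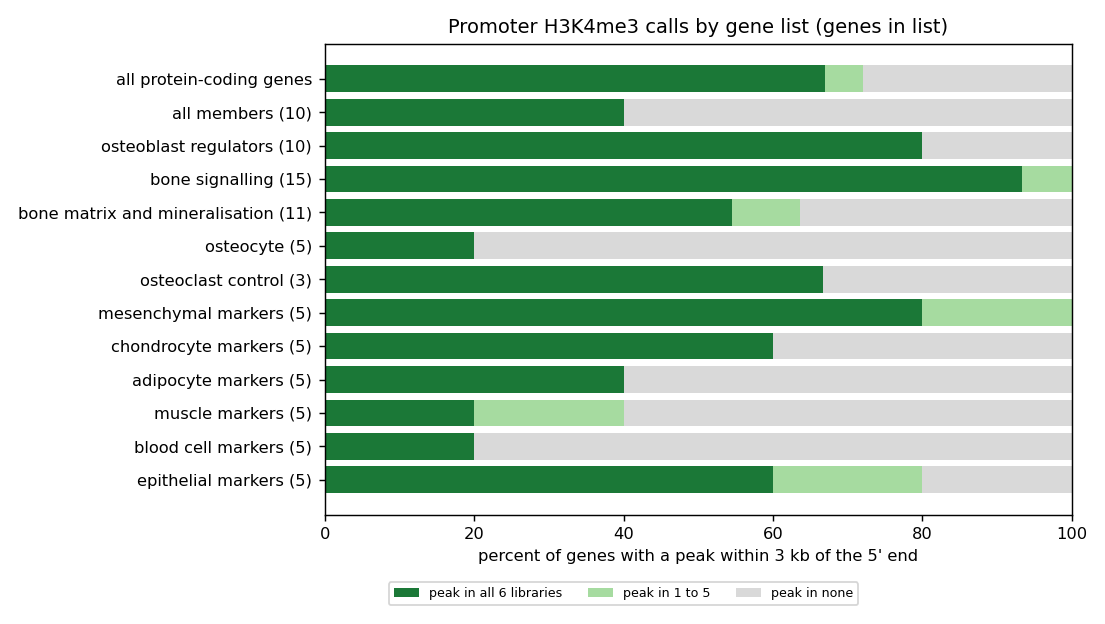
Share of the genes of each list (x axis, percent; number of genes in brackets) with an H3K4me3 peak within 3 kb of the 5′ end in all 6 libraries, in 1 to 5, or in none. Of the 10 members 4 were called in all 6 libraries, against 66.9% of all protein-coding genes, and of the 15 bone signalling genes 14 were.

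Markers of other cell types were checked in the same way. Of 5 mesenchymal markers, 4 were called in all 6 libraries and ENG in all but WT replicate 2. Of 5 chondrocyte markers, 3 were called in all 6, SOX9, ACAN and COL2A1, the last with its 5′ end under a peak in no library. The adipocyte markers PPARG and CEBPA (2 of 5), 1 of 5 muscle markers (MYOD1) and 1 of 5 blood cell markers (PAX5) were called in all 6. The 5′ end itself was under a peak in 0 libraries at MYOD1, in 1 at PAX5 and in 5 at PPARG. It was under a peak in 2 at the mesenchymal marker VIM and in 1 at the epithelial marker KRT8. Of 5 epithelial markers, 3 were called in all 6 and CDH1 in none. CLDN4 was called in WT replicate 1 (2055 bp) and in the 3 KO libraries (2075, 1572 and 1930 bp), and in neither of the other WT libraries. ACTB and GAPDH were called in all 6. Over all protein-coding genes, 66.9% were called in all 6 libraries and 61.3% had the 5′ end under a peak in all 6. Calls within 3 kb also fell on genes of other lineages, and beside these shares the counts do not tell lineages apart.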

How the data were processed

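H3K4me3 ChIP-seq lists of 3 WT and 3 KO U2OS libraries were assigned to genotypes and replicates from their titles. Per the study's methods and the submitters' processing notes, the authors used Trimmomatic, mapped to GRCh38 (Bowtie2 2.3.5.1), discarded duplicate and multimapping reads, and made 1 broad peak list per library (MACS2 2.1.1.2). Whether an input was used for each list is not given in the sources used here. The deposited lists hold 4 values per peak (a score, the ratio of fold enrichment, −log10 p, −log10 q), which the authors' peak caller averaged over each peak. The score was not used. The ratio and −log10 q served to rank or filter peaks within a list. There are no counts, so depth is unknown.

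Peaks of chromosomes 1 to 22 and both sex chromosomes were set against 20033 MANE Select or canonical 5′ ends of GENCODE release 44. Covered length was compared with a two-sided exact permutation test (20 assignments), adjusted by Benjamini-Hochberg over 14422 promoters with coverage. P-values measure the spread between libraries. With 1 library per clone, clone, ChIP and kind of list cannot be told apart in it. The genes named were the members, the bone and marker lists, ZBTB48, and genes sharing a member's window; CASD1 and ENSG00000232821 were named after their peaks were seen. A regulator counted in its list is not reported here by name. Members and lists were chosen with earlier results of these data known. Alternatives were stricter peaks, other windows, any transcript's 5′ end, within-library percentiles, a replicate block, and omission of single libraries. A window of 5 kb was added after the data were seen. Computation used Python 3.11.15, numpy 2.4.6, scipy 1.17.1 and matplotlib 3.10.9. The code for counting was tested on copies of a KO list with peaks removed. These copies lacked the difference between kinds of list, so the test bears on the code alone.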

Additional observations from a re-analysis of the deposited data

How the results depend on the processing

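Requiring a fold enrichment of at least 4 left 1 member called in all libraries, SPP1, by its upstream peak. The members called were then 4, 4 and 1 in WT and 2, 2 and 1 in KO. This turned the WT minus KO mean from 0 to 1.33, though WT replicate 3 was above no KO library. The cutoff lay near the medians of the 4 lists of lower enrichment (4.19 to 4.65) and far below 13.4 and 14. It also left 0 members with each WT above each KO library. With percentiles within each library in place of bp, that last count was also 0, and the differences turned to −9.17 percentile points at COL1A1 and −17.8 at RUNX2. The same count rose from 2 to 3 with a window of 1 kb, with the 5′ end of any transcript, and without WT replicate 3. The RUNX2 difference was 265 bp with 1 kb and 2551 bp with the 5′ end of any transcript (exact permutation p = 0.1 for each, unadjusted). With the 5′ end of any transcript, the members called were 6, 6 and 6 in WT and 6, 5 and 5 in KO, a WT minus KO mean of 0.667. Of these, 5 were called in all libraries, and ALPL was called in all but KO replicates 2 and 3. Leaving out 1 library at a time moved the RUNX2 difference between −87.8 and 912 bp, negative without WT replicate 1 (−87.8 bp) or KO replicate 1 (−69.5 bp). WT replicate 3 against KO gave −117 bp at SPP1. The deviations of WT and KO libraries of the same replicate number had correlations of −0.0095, 0.017 and 0.093. Those of unlike numbers had −0.118 to 0.0787, and whether the numbers pair the libraries is not known. With the replicate block, p was 0.25 at COL1A1 and MSX2, 1 at RUNX2 and 0.75 at SPP1, where 0.25 is the smallest it allows. The block acts on p alone, so the counts of 4 members called and 2 with each WT above each KO could not change. Depth is unknown, and a missing peak sets no limit on the mark.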
